A study of Mus musculus with 9 samples.

Results

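The 9 genes that build, break down or control glycogen and that were followed in mouse liver after formoterol were the synthesis enzymes Gys2, Gbe1 and Ugp2, the breakdown enzyme Pygl with the kinase subunits Phka2 and Phkg2, and the phosphatase targeting subunits Ppp1r3b, Ppp1r3c and Ppp1r3g. They were picked by symbol as a pathway list, with earlier results of these data known. All 9 were found among the 56748 genes of the deposited count table and passed the filter on low counts, which kept 13042 genes. The samples were bulk livers of male C57BL/6J mice, 28 weeks old, that ate a high-fat diet for 20 weeks from 8 weeks of age. In the last 4 weeks 5 mice received formoterol at 1 mg/kg daily by injection into the peritoneum, and 4 received the vehicle DMSO in the same way. Formoterol, a drug used in asthma, activates beta-adrenergic receptors over many hours. Both groups ate the same diet, so no lean liver is part of the comparison. Which columns belong to which group was read from the suffix of the column names together with the group sizes, and every direction given here rests on that reading. Libraries M46 to M50 are the formoterol group and M56, M58, M59 and M60 the vehicle group. The column names of both groups also carry the word MASH.

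Liver stores glucose as glycogen after a meal and releases it between meals. Ugp2 makes UDP-glucose, glycogen synthase (Gys2 in liver) adds it to the growing chain, and Gbe1 inserts the branches, while glycogen phosphorylase (Pygl in liver) removes glucose units. Beta-adrenergic agonists and glucagon raise cyclic AMP, and the kinase this activates switches on phosphorylase kinase, a complex of alpha, beta, gamma and calmodulin subunits that in turn activates phosphorylase. Protein phosphatase 1, brought to glycogen by targeting subunits of the Ppp1r3 family, works in the opposite direction. Much of this control acts on the proteins by phosphorylation, which transcript counts do not measure.

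Libraries held 12336665 to 20339665 counts, and the totals did not separate the groups (two-sided exact permutation p = 0.81). Formoterol library M46 had the lowest median Spearman correlation with the other libraries (0.942 across the genes tested, against 0.949 to 0.968 for the rest) and the lowest summed level of stellate, endothelial and macrophage markers. The tissue label was borne out by hepatocyte markers: 7 of 7 were tested, and their summed level, most of it Alb, was 84075 to 96654 CPM (counts relative to the scaled size of each library) in vehicle and 98766 to 138070 CPM in formoterol libraries, without overlap. That separation belongs to the sum and not to each marker. Of the 7, only Apoa1 lay above vehicle without overlap, as did 2.45% of all genes. Alb alone overlapped, with 63462 to 73380 CPM in vehicle and 72733 to 105060 CPM in formoterol libraries. The log2 fold changes of the 7 (formoterol minus vehicle) were positive for 5 and negative for 2. In bulk tissue, fewer cells of a type and less RNA per cell cannot be told apart. Summed stellate cell and fibroblast markers (7 of 7 tested) were 218 to 382 CPM in vehicle and 71.4 to 348 CPM in formoterol libraries. Endothelial markers (5 of 5 tested) were 55.2 to 73.1 and 23.4 to 69.2 CPM, and macrophage markers (5 of 5 tested) 65.5 to 101 and 42.2 to 85.1 CPM. Cholangiocyte markers (4 of 4 tested) were 7.74 to 17.2 and 6.16 to 20.3 CPM. Log2 fold changes were negative for 7 of 7 stellate, 5 of 5 endothelial, 3 of 5 macrophage and 2 of 4 cholangiocyte markers. Over all genes 6695 of 13042 were negative, and 0 of these markers passed the edgeR test. Of 4 skeletal muscle markers Acta1 and Ckm were at 0 counts in all libraries and the sum stayed at or below 1.66 CPM, and of 3 adipocyte markers the sum stayed at or below 0.975 CPM, with Plin1 at 0. Of 3 pancreas markers, Prss2 and Cpa1 were at or near 0, while Cela1 had 14.9 ± 5.37 CPM in formoterol and 6.34 ± 1.19 CPM in vehicle libraries. Cela1 also lay above vehicle without overlap, as did 2.45% of all genes, with a log2 fold change of 1.22. Its adjusted p was 0.159 by edgeR, 0.00394 by DESeq2 and 0.00542 by limma-voom with sample quality weights. The part of these markers in the results below was not tested.

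Formoterol was compared with vehicle by edgeR's quasi-likelihood test over all 13042 genes, with Benjamini-Hochberg adjustment over all of them. None of the 9 glycogen genes passed an adjusted p of 0.05, where the test called 0% of all genes. At an unadjusted p under 0.05, 2 of the 9 were lower (Phkg2 and Ppp1r3g) and 0 were higher, against 5.53% lower and 9.03% higher over all genes. Groups that did not overlap were found for 1 of the 9, Phkg2 (formoterol below), and for 0 in the other direction. Over all genes that share was 2.38% with formoterol below, 2.45% with formoterol above and 4.84% in either direction. The 9 log2 fold changes (formoterol minus vehicle) ran from −1.60 to 0.36 with a median of −0.064, beside a median of −0.014 over all genes, and 4 were positive and 5 negative. DESeq2 called 0 of the 8 members to which it gave an adjusted p (Ppp1r3g got none), although it called 3.15% of all genes with one, and limma-voom weighted for sample quality called 0 of 9 while it called 10.5% of all genes.

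The levels of the 9 genes spanned a wide range, which can be compared between genes only per gene length. In RPKM (CPM divided by the deposited gene length in kilobases), Ugp2 led in the vehicle livers with 201 ± 7.79 (SD, n = 4), followed by Gys2 with 65.9 ± 8.10, Pygl with 33.7 ± 3.32, Ppp1r3b with 22.9 ± 3.62 and Gbe1 with 9.34 ± 0.754. Ppp1r3c (4.11 ± 0.789), Phka2 (2.46 ± 0.312), Phkg2 (2.07 ± 0.295) and Ppp1r3g (0.897 ± 0.401) lay below. The order of means was the same in the formoterol livers. Of the 8 pairs of neighbours in this order, Phka2 and Phkg2 overlapped between libraries in the vehicle group. In the formoterol group Pygl overlapped with Ppp1r3b and Ppp1r3c with Phka2, while Phka2 stood clear of Phkg2 there. Ppp1r3b thus carried most of the transcript of the 3 targeting subunits.

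**Figure D1:**
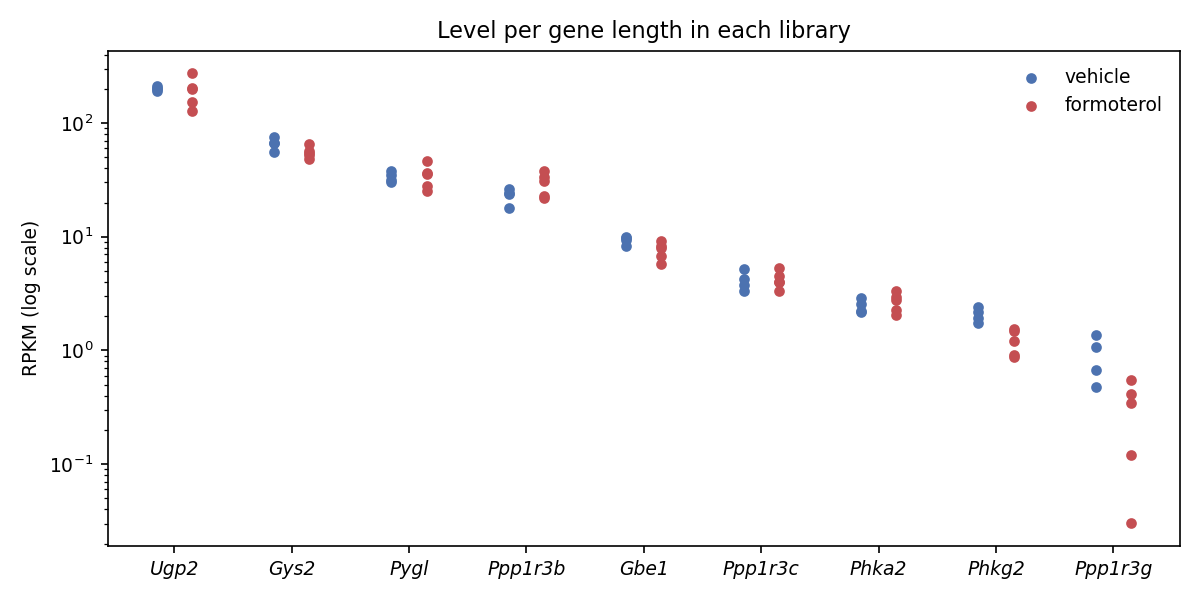
Level per gene length (RPKM, log axis) of the 9 glycogen genes in each library, with 4 vehicle libraries in blue and 5 formoterol libraries in red, ordered by the vehicle mean. Ugp2 lies highest and Ppp1r3g lowest in both groups, and the 2 groups separate at Phkg2 without overlap.

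Among the synthesis enzymes, Gys2, the liver glycogen synthase (ENSMUSG00000030244; mm39 chromosome 6, 142368339 to 142418835, minus strand), had 199.8, 147.3, 177.2 and 176.6 CPM in vehicle libraries M56, M58, M59 and M60. The formoterol libraries M46 to M50 had 139.2, 151.4, 129.6, 173.7 and 144.1 CPM. Libraries M46, M48 and M50 lay below every vehicle library, and the groups overlapped through M47, M49 and M58. The means were 148 ± 16.6 and 175 ± 21.5 CPM, a log2 fold change of −0.25 (SE 0.14, 95% interval −0.56 to 0.060, edgeR adjusted p = 0.451). A difference of this size was not resolved from the spread.

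Gbe1, the branching enzyme (ENSMUSG00000022707; chromosome 16, 70110837 to 70366604, plus strand), had 53.4, 49.95, 52.3 and 44.3 CPM in the vehicle livers. It had 30.9, 49.4, 42.7, 44.1 and 36.5 CPM in formoterol libraries M46 to M50. Of the 5 formoterol libraries 4 lay under the lowest vehicle library, M60, and M47 lay among the vehicle values. The log2 fold change was −0.30 (SE 0.15, 95% interval −0.62 to 0.025, edgeR adjusted p = 0.387).

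Ugp2, which makes the UDP-glucose that both glycogen synthesis and glucuronidation use (ENSMUSG00000001891; chromosome 11, 21271138 to 21321201, minus strand), was steady in the vehicle livers at 587.9, 622.1, 646.0 and 614.5 CPM. In formoterol libraries M46 to M50 it had 627.8, 474.0, 841.6, 617.1 and 393.2 CPM. The formoterol values lay on both sides of the vehicle values, with M48 highest and M50 lowest. The coefficient of variation was 3.87% in vehicle and 29.0% in formoterol livers. A larger coefficient in the formoterol group was shared by 7 of the 9 genes and by 72.5% of all genes tested. The log2 fold change of Ugp2 was −0.064 (SE 0.20, 95% interval −0.48 to 0.36, edgeR adjusted p = 0.911), and it turned positive without M50.

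On the breakdown side, Pygl, the liver glycogen phosphorylase (ENSMUSG00000021069; chromosome 12, 70237585 to 70278262, minus strand), had 210.0, 217.3, 240.4 and 260.3 CPM in vehicle libraries M56, M58, M59 and M60. It had 174.4, 250.4, 318.9, 245.8 and 192.3 CPM in formoterol libraries M46 to M50. Formoterol libraries were again on both sides, with M48 above and M46 and M50 below the vehicle range. The log2 fold change was 0.027 (SE 0.18, 95% interval −0.35 to 0.41, edgeR adjusted p = 0.965), and its sign changed under other scalings and without single libraries. The level of Gys2 relative to Pygl, per length, was 1.98 ± 0.337 in vehicle and 1.69 ± 0.403 in formoterol livers. These ratios overlapped, with M48 lowest at 1.05 and M56 highest at 2.47.

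Phkg2 had the smallest p of the 9 genes. It encodes the catalytic gamma subunit of phosphorylase kinase in liver and testis (ENSMUSG00000030815; chromosome 7, 127172512 to 127182479, plus strand), and its loss causes a liver glycogen storage disease. Raw counts were 167, 105, 144 and 145 in vehicle and 59, 84, 54, 75 and 105 in formoterol libraries. As CPM these were 9.73, 8.64, 7.03 and 7.66 in vehicle libraries M56, M58, M59 and M60 and 4.80, 5.95, 3.50, 3.66 and 6.18 in formoterol libraries M46 to M50. Every formoterol library lay below every vehicle library, with M50 and M59 the closest. The means were 4.82 ± 1.25 and 8.26 ± 1.18 CPM, a log2 fold change of −0.78 (SE 0.23, 95% interval −1.27 to −0.28), or 0.583 of the vehicle level. The unadjusted p of 0.00451 ranked it 322 among 13042 genes, and the edgeR adjusted p was 0.182. The adjusted p was 0.0687 by DESeq2 and 0.0653 by limma-voom with quality weights, and over all 18 alternatives it lay between 0.0653 and 0.514. The last 925 bp of Phkg2 overlap Ccdc189 on the opposite strand, which held 5 to 26 counts per library. The strand setting of the counting is not given in the sources used here, so reads from that stretch cannot be assigned to one or the other gene.

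The other phosphorylase kinase subunits had smaller differences. Phka2, the liver alpha subunit that the cyclic AMP-dependent kinase phosphorylates (ENSMUSG00000031295; chromosome X, 159285162 to 159381874, plus strand), had 13.6, 17.4, 13.3 and 15.5 CPM in the vehicle livers. It had 12.4, 18.0, 16.8, 13.9 and 20.2 CPM in formoterol libraries M46 to M50. M46 lay just below and M47 and M50 above the vehicle range, and the log2 fold change was 0.13 (SE 0.18, 95% interval −0.25 to 0.50, edgeR adjusted p = 0.789), turning negative when library totals alone set the scale. Phkb, the beta subunit, had 17.5 ± 1.60 CPM against 17.7 ± 2.12, and Phka1, the alpha subunit best known from muscle, 4.70 ± 1.45 against 4.90 ± 0.999. Phkg1, the muscle gamma subunit, was below the filter with at most 0.292 CPM in any library. The level of Phkg2 relative to Phka2, per length, was 0.849 ± 0.161 in vehicle libraries (0.751 to 1.09) and 0.454 ± 0.103 in formoterol libraries (0.316 to 0.589). That ratio did not overlap between the groups, but neither did Phkg2 alone, so the ratio is not separate evidence. The difference between these 2 genes in their response was not tested.

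Ppp1r3b, the targeting subunit that is most abundant in liver and binds active phosphorylase (ENSMUSG00000046794; chromosome 8, 35842893 to 35855293, plus strand), had 110.2, 162.0, 151.2 and 147.0 CPM in vehicle libraries M56, M58, M59 and M60. It had 137.2, 207.1, 141.2, 191.2 and 235.4 CPM in formoterol libraries M46 to M50. M47, M49 and M50 lay above every vehicle library, while M46 and M48 lay inside the vehicle range. The means were 182 ± 42.5 and 143 ± 22.5 CPM, a log2 fold change of 0.36 (SE 0.19, 95% interval −0.044 to 0.75, edgeR adjusted p = 0.401). Relative to Gys2, per length, Ppp1r3b stood at 0.528 ± 0.113 in formoterol and 0.357 ± 0.0958 in vehicle livers, and the groups overlapped because vehicle library M58 reached 0.470.

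Ppp1r3c, known as protein targeting to glycogen (ENSMUSG00000067279; chromosome 19, 36709131 to 36714053, minus strand), had 9.03, 10.2, 11.5 and 14.0 CPM in the vehicle livers. It had 14.6, 9.07, 10.8, 10.8 and 12.2 CPM in formoterol libraries M46 to M50. The 2 groups covered nearly the same range. The log2 fold change was 0.037 (SE 0.19, 95% interval −0.37 to 0.44, edgeR adjusted p = 0.952), with a sign that changed under other scalings and without single libraries.

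Ppp1r3g, a targeting subunit known to be higher in fasted than in fed liver (ENSMUSG00000050423; chromosome 13, 36142822 to 36154371, plus strand), had the largest fold change and the fewest reads of the 9. Raw counts were 22, 22, 59 and 70 in vehicle libraries M56, M58, M59 and M60, and 1, 21, 5, 19 and 19 in formoterol libraries M46 to M50. Scaled, these were 1.28, 1.81, 2.88 and 3.70 CPM against 0.0814, 1.49, 0.324, 0.926 and 1.12 CPM. The groups overlapped only at formoterol library M47 and vehicle library M56. The log2 fold change was −1.60 (SE 0.58, 95% interval −2.83 to −0.36), with an unadjusted p of 0.0148, rank 851, and an edgeR adjusted p of 0.227. M46, the library with 1 count, also had the lowest summed levels of stellate, endothelial and macrophage markers, though not the lowest level of each marker. M48, with 5 counts, had stellate and macrophage sums inside the vehicle range and an endothelial sum below it. Without M46 the log2 fold change was −1.34 (edgeR adjusted p = 0.358, within a range of 0.0843 to 0.482 over the alternatives). Among the 3 targeting subunits followed here, per length, Ppp1r3g made up 2.21, 2.21, 3.61 and 4.55% of the summed level in the vehicle libraries and 0.110 to 1.49% in the formoterol libraries. The shares did not overlap, and both the lower Ppp1r3g and the higher Ppp1r3b values enter them.

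**Figure D2:**
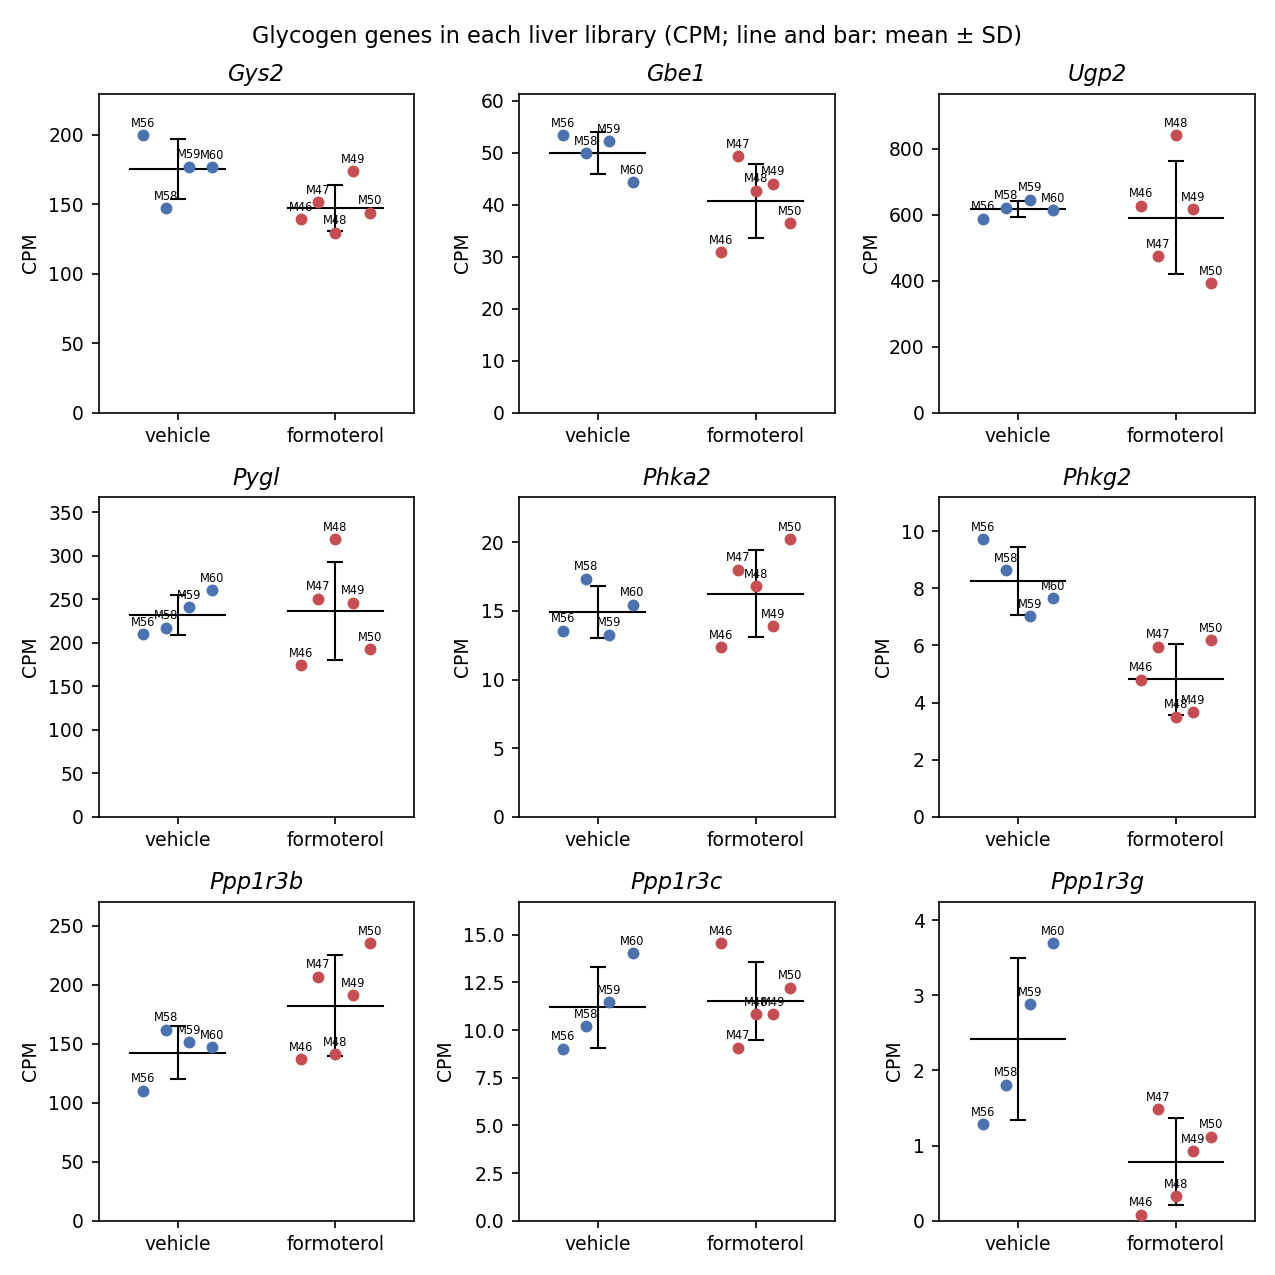
CPM of each of the 9 genes in every library (points labelled by library; line and bar, mean ± SD; n = 4 vehicle and 5 formoterol; each axis starts at 0). Phkg2 separates the groups, with formoterol libraries at 3.50 to 6.18 and vehicle libraries at 7.03 to 9.73 CPM, while the other 8 genes overlap.

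**Figure D3:**
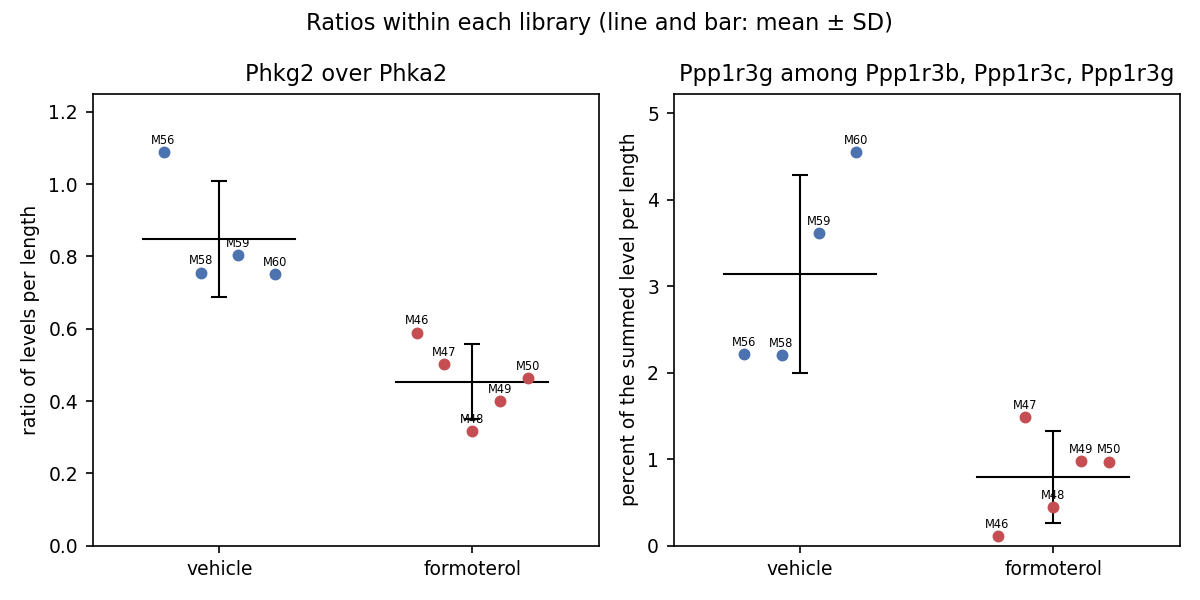
Ratio of Phkg2 to Phka2 (left) and the share of Ppp1r3g in the summed level of Ppp1r3b, Ppp1r3c and Ppp1r3g (right), both per gene length, in each library, with mean ± SD. The formoterol libraries lie below all vehicle libraries in both panels. The panels reuse Phkg2 and Ppp1r3g, the genes lower at an unadjusted edgeR p under 0.05, and are not separate evidence. The ratios of Gys2 to Pygl and of Ppp1r3b to Gys2, not drawn, overlapped between the groups.

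The stretch just before the gene start is shown for the 2 genes with the smallest p and, for contrast, for Pygl and Ppp1r3c, whose fold changes were near 0. Sequences are the 250 bases upstream of the start, on the strand of the gene, from RefSeq on GRCm38.p6, a different build from the mm39 coordinates above. An entry was found for 7 of the 9 members. Capitals mark matches, on either strand, to the cyclic AMP response element TGACGTCA, the shorter form TGACG (which the full element contains), the E-box CACGTG or the core AGGTCA of sites of the ROR and REV-ERB receptors.
Phkg2 (chr7:127573098-127573347, plus strand): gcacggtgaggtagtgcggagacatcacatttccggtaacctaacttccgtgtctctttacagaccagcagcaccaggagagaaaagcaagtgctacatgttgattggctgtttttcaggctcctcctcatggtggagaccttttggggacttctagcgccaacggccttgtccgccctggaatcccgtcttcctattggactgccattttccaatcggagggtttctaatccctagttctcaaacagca
Ppp1r3g (chr13:35967656-35967905, plus strand): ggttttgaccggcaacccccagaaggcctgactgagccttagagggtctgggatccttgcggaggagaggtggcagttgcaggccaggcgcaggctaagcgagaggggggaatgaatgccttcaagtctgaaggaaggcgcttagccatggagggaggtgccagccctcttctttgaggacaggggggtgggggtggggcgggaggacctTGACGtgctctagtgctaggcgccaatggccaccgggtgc
Pygl (chr12:70227684-70227933, minus strand): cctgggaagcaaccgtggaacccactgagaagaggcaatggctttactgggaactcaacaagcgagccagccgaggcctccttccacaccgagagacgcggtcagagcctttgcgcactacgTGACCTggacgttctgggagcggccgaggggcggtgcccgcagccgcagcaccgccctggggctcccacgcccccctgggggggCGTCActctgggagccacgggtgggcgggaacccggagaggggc
Ppp1r3c (chr19:36736605-36736854, minus strand): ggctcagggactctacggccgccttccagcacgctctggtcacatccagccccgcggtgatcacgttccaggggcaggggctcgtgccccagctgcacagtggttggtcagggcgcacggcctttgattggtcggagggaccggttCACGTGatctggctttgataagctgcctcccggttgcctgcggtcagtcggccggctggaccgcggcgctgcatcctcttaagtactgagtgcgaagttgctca
The Ppp1r3g window held 1 TGACG, starting 40 bases before the gene start, and the Pygl window held 1, starting 44 bases before it. Pygl also held 1 AGGTCA and Ppp1r3c 1 E-box, and no match was in the Phkg2 window. Nor was a match found for Gbe1, Ugp2 and Phka2, whose windows are not shown. Over 32851 promoter windows of the same length, 17.8% held TGACG, 1.55% TGACGTCA, 6.02% CACGTG and 14.0% AGGTCA. A match describes the letters and is not evidence of binding.

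No difference was resolved for the partners and isozymes of these genes. For scarce ones larger differences stay possible, as with Gys1 (95% interval of the log2 fold change −1.42 to 1.05). Of 26 listed, 21 were tested, 0 passed the edgeR test and 0 had an unadjusted p under 0.05 in either direction, beside 14.6% of all genes in either direction. Their median log2 fold change was −0.12, with 5 positive and 16 negative and a range of −0.69 to 0.19. Gyg, the glycogenin that primes the particle, had 3.77 ± 1.50 CPM against 4.06 ± 1.02. Pgm1, which links glucose phosphates to UDP-glucose synthesis, had 105 ± 13.6 CPM against 122 ± 23.0. The kinases that inhibit glycogen synthase had log2 fold changes of −0.28 for Gsk3a and −0.40 for Gsk3b (edgeR adjusted p = 0.484 and 0.430). The catalytic phosphatase subunits Ppp1ca, Ppp1cb and Ppp1cc lay between −0.061 and 0.12. Isozymes of other tissues were scarce, with Gys1 (the muscle synthase) at 1.09 ± 0.674 CPM against 1.24 ± 0.686, Pygb (the brain phosphorylase) at 1.65 ± 1.83 against 2.07 ± 0.716 and Pygm (the muscle phosphorylase) below the filter. Ppp1r3e, another targeting subunit, had 3.64 ± 1.32 CPM against 3.42 ± 0.781, and Ppp1r3a, Ppp1r3d and Ppp1r3f were below the filter.

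**Figure D4:**
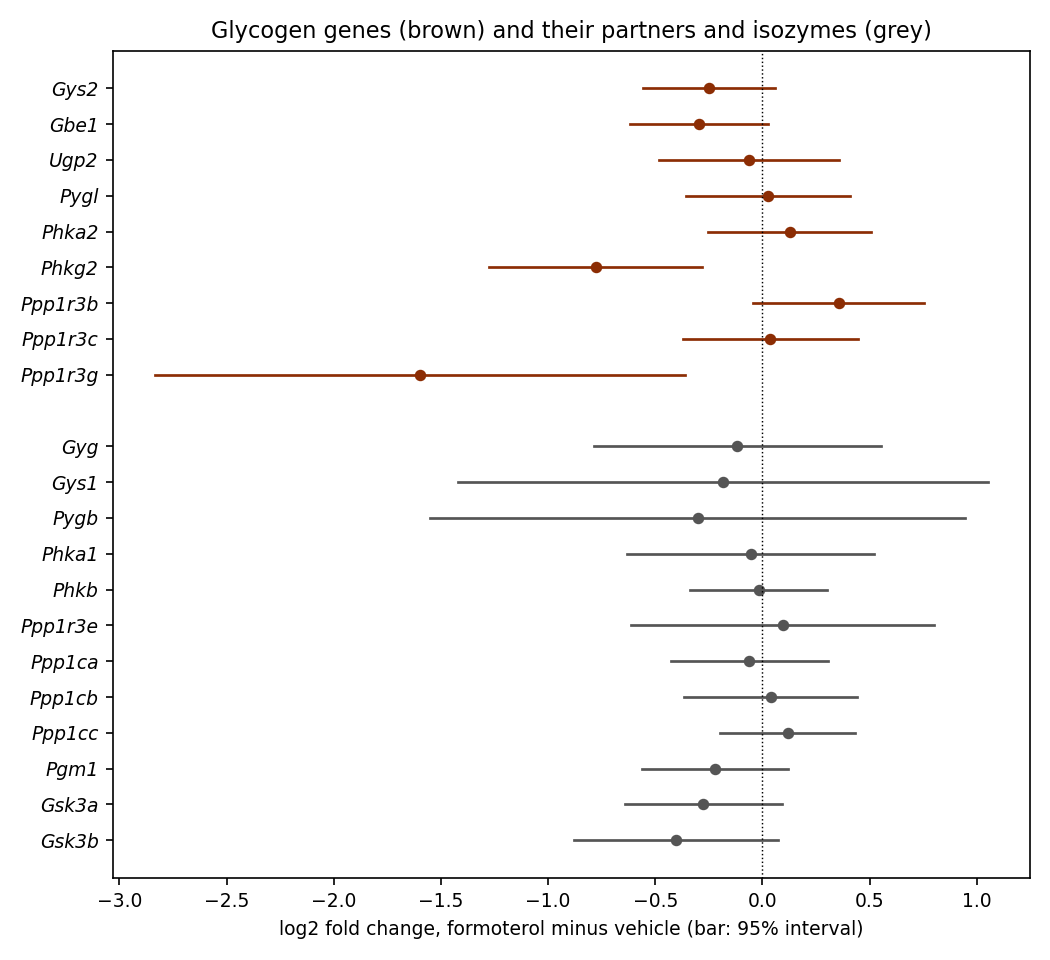
Log2 fold change (formoterol minus vehicle; bar, 95% interval from the edgeR fit, not adjusted for the number of genes) of the 9 glycogen genes in brown and of the 12 partners and isozymes described above, of 21 tested, in grey. Only the intervals of Phkg2 (−1.27 to −0.28) and Ppp1r3g (−2.83 to −0.36) exclude 0 among the 21 genes drawn.

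Genes that make or release glucose phosphate gave 0 of 11 tested past the edgeR test, which called 0% of all genes. At an unadjusted p under 0.05, 1 of 11 was lower and 0 were higher, against 5.53% and 9.03% of all genes. The median log2 fold change of the 11 was −0.15, beside −0.014 over all genes. The gene lower was Pgm3, a mutase of amino sugar synthesis, with 10.3 ± 2.54 CPM against 16.2 ± 2.61, which is −0.65 on the log2 scale (SE 0.20, edgeR adjusted p = 0.191; from 0.0203 to 0.523 over the alternatives, and under the threshold without M49 and by limma-voom with weights). G6pc, which releases free glucose, had 84.0 ± 55.3 against 93.2 ± 25.9. Of 16 tested genes of the signals upstream, 0 passed the edgeR test (median −0.067). An unadjusted p under 0.05 was found for 0 of the 16, beside 14.6% of all genes in either direction. Gcgr, the glucagon receptor, had 165 ± 33.4 CPM against 122 ± 39.7.

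The labels do not give the hour of collection or whether the mice had been fasted, and several glycogen genes are known to follow both. Of 14 tested genes of feeding state and clock, 0 passed the edgeR test. Their median log2 fold change was −0.19, with 6 positive and 8 negative. At an unadjusted p under 0.05 Cry1 was higher and Nr1d1 and Pdk4 were lower, beside 9.03% higher and 5.53% lower over all genes. The rest of the list lay on both sides of 0, as with Arntl at 0.66 and Igfbp1 at −1.17. Nr1d1, which encodes the clock repressor REV-ERB alpha, had 20.7 ± 6.51 CPM against 46.5 ± 8.63, without overlap between groups. Its log2 fold change was −1.16 (SE 0.22, edgeR adjusted p = 0.151, and from 1.33e-05 to 0.476 over the alternatives). Nr1d1 was under the threshold in 4 of the 18 alternatives: by DESeq2, by limma-voom with weights, without a filter and without M49. Cry1, a clock repressor, had 8.15 ± 2.26 CPM against 4.79 ± 1.81 (edgeR adjusted p = 0.236; from 0.0167 to 0.557 over the alternatives, and under the threshold by limma-voom with weights). Pdk4, a kinase induced by fasting that inhibits pyruvate dehydrogenase, had 5.63 ± 2.51 CPM against 11.6 ± 4.04 (edgeR adjusted p = 0.195; from 0.0382 to 0.514 over the alternatives, and under the threshold without a filter and by limma-voom with weights). Pck1, another gene induced by fasting, had 1233 ± 284 CPM against 1161 ± 282. Whether these genes and the values of Phkg2 and Ppp1r3g share a source was not tested.

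Library by library, the 9 genes did not move as a block. M46 had 6 of 9 below and 1 above the vehicle range, and M50 had 6 below and 2 above, while 36.6% of all genes tested lay below and 31.2% above that range in M46, and 23.3% below and 24.8% above in M50. M47 had 2 below and 2 above (26.8% and 25.1% of all genes), M48 4 below and 2 above (34.0% and 30.3%), and M49 3 below and 1 above (23.1% and 25.1%). Phkg2 was the one gene below the vehicle range in all 5. M48 combined the highest Ugp2 and Pygl with the lowest Gys2 and Phkg2, and M50 combined the highest Ppp1r3b and Phka2 with the lowest Ugp2.

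As a description over the 9 libraries, which share both groups, the genes with a mean of at least 5 CPM whose log2 CPM tracked a member most closely were listed among 8013 protein-coding genes. For Gys2 these were Ly6e, Rap1gds1 and Cldn2 (Pearson r = 0.985, 0.975 and 0.956; Spearman rho = 0.900, 0.983 and 0.950). For Pygl they were Spout1, Ppil1 and Nsun4 (r = 0.939, 0.921 and 0.897; rho = 0.883, 0.900 and 0.983). For Ppp1r3b they were Hyi, Lsm8 and Slc25a45 (r = 0.904, 0.900 and 0.875; rho = 0.817, 0.900 and 0.800). For Ppp1r3c they were Cog8, Mrpl30 and Hmgb3 (r = 0.915, 0.894 and 0.881; rho = 0.933, 0.917 and 0.783). These are the highest of 8013 values over 9 points, and no test was made of them. Ppp1r3g was too scarce for this list.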

How the data were processed

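The deposited file holds raw counts made by the authors for each Ensembl gene, whole numbers not normalized, with symbols, mm39 coordinates and lengths. The submitters' processing notes name HISAT2 2.0.5 for alignment, the build mm39 and DESeq2 without a version. How reads were counted, with which strand setting and annotation, is not given in the sources used here. Columns carry animal codes, the word MASH in both groups, a group suffix (HF taken as formoterol, HD as vehicle) and no replicate number. Each library was taken as 1 mouse. Otherwise the p-values measure only the spread between samples, which may be technical. Libraries of a group differed beyond sampling noise (chi-square per degree of freedom of 24.7 or more), so none was merged.

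Genes were kept by edgeR's filterByExpr (minimum count 10, minimum total 15). The comparison used edgeR 4.0.16 (R 4.3.3) with TMM factors and the robust quasi-likelihood test over 13042 genes, Benjamini-Hochberg adjusted, threshold 0.05. CPM use TMM factors, and RPKM also divide by the deposited length. Means carry the SD over the libraries of a group (4 vehicle, 5 formoterol). The 95% intervals of fold changes use the standard error and degrees of freedom of that fit. Alternatives were DESeq2 1.42.0, limma-voom (limma 3.58.1) with and without sample quality weights, other scalings, no filter, a stricter filter (1 CPM in 5 libraries), removal of the trend on gene length and leaving out each library. The fit was tested on simulated data with 200 changed genes. At the same threshold it recovered 50% of the 2-fold and 74% of the 4-fold changes, with 3 false calls among 127. A permutation test planned for members below the filter was not needed, since all 9 were kept.

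All 9 members are named. Other pathway genes come from 4 lists, named where the unadjusted p was under 0.05 or where they are a direct partner or isozyme, and a few (G6pc, Gcgr, Pck1 and Cela1 among them) for their known role or tissue. Some genes of these lists are not reported here. The members and lists were chosen with earlier results of these data known. Marker lists cover hepatocytes, stellate cells and fibroblasts, endothelium, macrophages, cholangiocytes, skeletal muscle, adipocytes and pancreas.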

Additional observations from a re-analysis of the deposited data

How the results depend on the processing

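None of the 9 glycogen genes passed an adjusted p of 0.05 in any of the 18 alternatives run, while the number of all genes called changed from 0 by edgeR to 302 by DESeq2, 1374 by limma-voom with sample quality weights and 263 by edgeR without a filter. Leaving out each library in turn gave 0 to 702 genes called, with 702 without M49, 4 without M60 and 0 without any other. M49 also had the lowest sample quality weight in limma-voom (0.369), against 0.596 for M46 and 3.51 for M47, the highest. Of 162 values of the members' fold changes under alternatives, 147 kept their sign and 15 changed it. Gys2, Gbe1, Phkg2, Ppp1r3b and Ppp1r3g kept theirs in all 18. The log2 fold change of Phkg2 ranged from −0.95 to −0.60 across methods and from −0.90 (without M50) to −0.69 (without M56) with 1 library left out, and the smallest adjusted p with a library left out was 0.0897. That of Ppp1r3g ranged from −1.88 to −1.28 and from −1.94 (without M47) to −1.32 (without M60). With library totals alone the median of all genes moved to −0.16, and Pygl had −0.12, Phka2 −0.037 and Ppp1r3c −0.13. With upper-quartile factors Pygl had −0.015 and Ppp1r3c −0.0049, by limma-voom Pygl had −0.0012, and with quality weights Ppp1r3c had −0.11. With 1 library left out, Ugp2 ran from −0.24 to 0.044, Pygl from −0.12 to 0.11 and Ppp1r3c from −0.069 to 0.17. The cause of these changes was not tested. Ppp1r3g had 1 to 70 counts per library, which limits the precision of its values. No paired analysis was possible because the columns carry no replicate number that matches the labels.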
